A study of Mus musculus with 33 samples.

Results

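Evx1, Sp5, Cdx2, Cdx4 and Cdx1 are transcription factor genes of the posterior primitive streak and tail bud, and their read counts were followed here across 33 libraries of differentiating mouse embryonic stem cells. RefSeq transcript identifiers were mapped to gene symbols, unique reads were summed per gene, and the 5 genes were taken by symbol out of 21844 genes counted. Each of the 5 had 1 RefSeq transcript in the tables. Evx1, Sp5 and Cdx2 gave enough reads to be tested, and Cdx4 and Cdx1 were counted at 0 to 7 reads per library and passed no filter on low counts.

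Gastrulating cells pass through the primitive streak, where Nodal, a TGF-β family ligand that activin A mimics in culture, specifies mesoderm and endoderm together with Wnt and BMP. High Nodal or activin signalling is known to favour anterior streak and definitive endoderm, while posterior streak depends more on Wnt and BMP. Evx1 encodes a homeodomain repressor of the posterior streak, Sp5 encodes a zinc finger factor that is a direct target of Wnt and β-catenin signalling, and the Cdx genes encode caudal-type homeodomain factors that act on Hox genes and on axis elongation. Cdx2 is also a master factor of trophoblast.

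Embryoid bodies, which are aggregates of differentiating stem cells, were grown without serum, dispersed on day 2, treated for 2 days and harvested on day 4. The dose set, made by DP-seq, held 1 library of SB-431542 (SB), 2 serum-free control libraries (SFM) with neither agent, and activin A libraries. The activin A doses were 3 ng/mL (AA3, 1 library), 15 ng/mL (AA15, 2 libraries) and 100 ng/mL (AA100, 1 library). SB-431542 blocks type I receptors through which activin, Nodal and TGF-β signal. In DP-seq, cDNA is amplified from heptamer primers whose sequences were designed. The method set compared AA100 with AA3 by standard RNA-seq from 20 ng of mRNA (1 AA100 library and 2 AA3 libraries), by DP-seq from 50 pg with the original set of 44 primers (2 AA100 libraries and 1 AA3 library) and by SMART-seq, a method for small samples that amplifies full-length cDNA, from 50 pg (2 libraries of each). A further 12 DP-seq libraries formed a dilution series of AA3 mRNA, with 2 libraries at each input of 1, 10, 50 and 100 pg and of 1 and 10 ng. There were also 1 paired-end DP-seq library of about 100 pg of AA3 mRNA and 3 libraries of about 500 pg made with primer sets chosen against ribosomal transcripts. The labels name neither the stem cell line nor a genetic change.

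Library totals were 13053122 to 15707808 counts in the dose set, 10389043 to 10738438 in standard RNA-seq, 10678979 to 13389156 in DP-seq from 50 pg, 25897343 to 30609013 in SMART-seq and 427556 to 10387268 in the dilution series. Pairs of libraries are labelled technical replicates except the SFM pair, of which the SFM 2 library carried added yeast transcripts, and nothing says that these came from separate cultures, so p-values mostly set differences between samples against technical spread. The SFM libraries stood far apart: T, which encodes the streak factor Brachyury, had 1044 counts in SFM 1 and 10 in SFM 2. All 7 markers of pluripotent cells were detected in every library of the dose set and of standard RNA-seq. Levels below are counts scaled to a library total of 1000000 reads (CPM), with Wilson 95% intervals that cover counting error only.

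Evx1 followed the treatments of the dose set without overlap between groups, of which SB, AA3 and AA100 had 1 library each. The share of all genes without overlap was not counted. It had 5 counts in the SB library, against 198 and 217 in the SFM libraries. The activin libraries held 625 counts at 3 ng/mL, 1373 and 871 at 15 ng/mL and 2448 at 100 ng/mL. Every activin library was thus above both SFM libraries, which were close to each other for Evx1 although T differed between them. Reads from Evx1os, a long noncoding RNA gene that overlaps Evx1 by 1335 bases in the RefSeq annotation, cannot be separated from Evx1 reads without strand.

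In CPM, the SB library stood at 0.332 (interval 0.142 to 0.778), against 12.9 and 16.6 in SFM. The mean over the SFM libraries was 14.7 ± 2.66 (SD, n = 2). Levels with activin were 39.8 in AA3, 73.6 ± 19.7 in AA15 (SD, n = 2) and 158 in AA100. Pooled over libraries, the SB level was 0.0228 times the SFM level (exact counting interval 0.00736 to 0.0536), and the AA100 level was 10.9 times the SFM level (9.78 to 12.1). In bulk samples such as these, fewer cells that express a gene and less RNA per cell cannot be told apart.

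**Figure D1:**
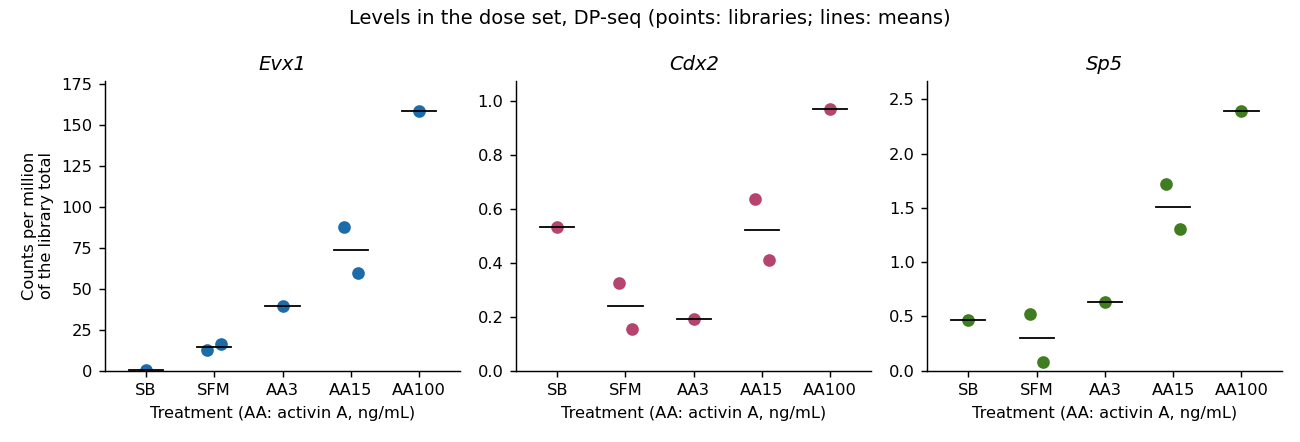
Level in CPM (counts scaled to a library total of 1000000 reads; vertical axes, linear, from 0) of Evx1, Cdx2 and Sp5 in the 7 DP-seq libraries of the dose set, by treatment; points are libraries and lines are group means. Evx1 runs from 0.332 in SB to 158 in AA100 with no overlap between groups, of which SB, AA3 and AA100 hold 1 library each. Cdx2 stays under 1 in every library and Sp5 under 2.40.

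The dose trend was tested as a slope over SFM, AA3, AA15 and AA100 taken as equal steps, in 6 libraries. Evx1 rose by 1.07 ± 0.15 log2 units per step (SE; edgeR quasi-likelihood test, Benjamini-Hochberg adjusted p = 0.0456), and was the only one of the 3 tested genes to pass, where 0.397% of 12102 genes were called in either direction and 0.149% as higher. The call was lost with RLE scaling (adjusted p = 0.0554), upper quartile scaling (0.0544), a slope on log2(dose + 1) (0.0674), SB added as the lowest step (0.092), and without SFM 1 (0.0836, where 0.0168% of 11929 genes were called, all lower), AA15 1 (0.233) or AA15 2 (0.22). Slopes on equal steps with 1 library left out stayed between 0.95 and 1.20.

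Against SFM, the Evx1 log2 change was −5.66 ± 0.95 for SB. For activin it was 1.27 ± 0.64 at 3 ng/mL, 2.16 ± 0.56 at 15 ng/mL and 3.25 ± 0.64 at 100 ng/mL. None of these passed in edgeR (adjusted p = 0.963, 0.985, 0.768 and 0.817), and neither did any other gene, so that 0.0% of 12180 genes were called in each of the 4 comparisons. At an unadjusted p under 0.05 there were 179, 197, 702 and 541 genes, and DESeq2 called 17, 14, 168 and 106 genes, Evx1 among them for SB (adjusted p = 0.000443) and AA100 (0.0327). The spread in this fit came largely from the SFM pair, whose counts differed with a chi-square of 565 per degree of freedom over 11963 genes, against 31.2 for the AA15 pair.

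With 1 SFM library left out, the Evx1 difference from the other passed in all 4 comparisons whichever was kept. For SB the log2 change was −6.03 (adjusted p = 2.27e-31) without SFM 1, where 58.4% of 12080 genes were called, and −5.19 (6.37e-16) without SFM 2, where 4.12% of 12076 genes were called. For AA3 it was 0.90 (0.00753) and 1.74 (1.27e-05), against 57.3% and 5.27% of genes called. For AA15 it was 1.79 (1.55e-09) and 2.65 (8.28e-14), against 64.7% and 13.0%. For AA100 it was 2.88 (2.55e-18) and 3.73 (5.11e-20), against 59.2% and 12.9%. In these fits the AA15 pair alone gave the spread, which is technical.

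Between activin doses, Evx1 was 1.98 ± 0.79 log2 units higher in AA100 than in AA3 of the dose set (adjusted p = 1), a contrast chosen after the data were seen. No gene passed (0.0% of 12180), 128 had an unadjusted p under 0.05, and DESeq2 called 0. Without SFM 1 the same difference had an adjusted p of 1.11e-08 and without SFM 2 one of 7.51e-08, where 5.01% and 4.64% of genes were called. In these fits AA15 also exceeded AA3, by 0.89 and 0.91 log2 units, and AA100 exceeded AA15, by 1.10 and 1.09. With no library left out, these steps were 0.89 ± 0.69 and 1.10 ± 0.64 log2 units (SE). Neither step passed, and no gene did in either comparison (0.0% of 12180).

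Evx1 lies on chromosome 6 at chr6:52313498-52318389, Sp5 on chromosome 2 at chr2:70474923-70477726 and Cdx2 on chromosome 5 at chr5:147300900-147307249 (RefSeq, GRCm38.p6). Their promoter windows, from 250 bases before to 50 after the annotated start, are shown because all 3 genes were highest in AA100 of the dose set. Of the words searched, the SMAD word was the one found in all 3. Capitals mark matches to these words, searched on both strands with overlapping matches allowed: CTTTGAA or CTTTGAT, with the variants CTTTGTA and CTTTGTT, for TCF/LEF factors, TGTNNATT for FOXH1, CAGAC for SMAD proteins and TTTATNG for CDX factors. The windows lie at chr6:52313248-52313547 on the plus strand for Evx1, chr2:70474673-70474972 on the plus strand for Sp5 and chr5:147307200-147307499 on the minus strand for Cdx2.
Evx1: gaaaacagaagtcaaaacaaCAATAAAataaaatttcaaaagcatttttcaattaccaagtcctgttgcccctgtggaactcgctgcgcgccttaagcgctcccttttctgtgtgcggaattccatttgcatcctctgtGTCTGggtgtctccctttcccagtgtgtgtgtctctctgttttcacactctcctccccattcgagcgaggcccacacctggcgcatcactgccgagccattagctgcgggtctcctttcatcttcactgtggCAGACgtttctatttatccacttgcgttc
Sp5: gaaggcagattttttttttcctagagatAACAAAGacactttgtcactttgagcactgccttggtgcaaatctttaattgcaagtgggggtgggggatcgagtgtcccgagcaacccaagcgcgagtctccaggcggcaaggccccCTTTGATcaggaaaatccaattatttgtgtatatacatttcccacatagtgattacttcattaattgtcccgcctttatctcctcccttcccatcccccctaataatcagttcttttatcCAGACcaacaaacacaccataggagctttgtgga
Cdx2: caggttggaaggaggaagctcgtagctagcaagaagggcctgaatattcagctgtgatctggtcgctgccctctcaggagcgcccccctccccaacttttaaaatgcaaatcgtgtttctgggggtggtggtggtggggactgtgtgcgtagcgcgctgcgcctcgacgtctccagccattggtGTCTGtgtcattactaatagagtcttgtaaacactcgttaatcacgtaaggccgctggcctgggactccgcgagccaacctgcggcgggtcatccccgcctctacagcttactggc
Sp5 held 2 TCF/LEF words, AACAAAG from −222 and CTTTGAT from −104 relative to the start, in a set of words found in 16.9% of 32851 promoters of the same length. Evx1 and Cdx2 held none of these. SMAD words began at −111 and +22 in Evx1, at −66 in Cdx2 and at +17 in Sp5, and 49.6% of promoters hold at least 1. A CDX word, CAATAAA, began at −230 in Evx1, in 10.9% of promoters. The FOXH1 word, in 12.2% of promoters, was in none of the 3 windows. A match describes letters and is not a site, and a missing match says only that the letters are not in this window.

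Sp5 was read at low counts in the dose set. It had 7 counts in SB, against 8 and 1 in SFM, so the SB count lay between those of the SFM pair. Activin libraries held 10 counts at 3 ng/mL, 27 and 19 at 15 ng/mL and 37 at 100 ng/mL. All 4 activin libraries were above both SFM libraries, AA3 by only 2 counts over SFM 1. In CPM, Sp5 averaged 0.298 ± 0.313 in SFM (SD, n = 2), 0.637 in AA3 (interval 0.346 to 1.17), 1.51 ± 0.296 in AA15 (SD, n = 2) and 2.39 in AA100 (1.74 to 3.30).

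The Sp5 slope was 1.01 ± 0.24 log2 units per step, close in size to that of Evx1, and did not pass (adjusted p = 0.164). It was called by DESeq2 (0.0139) and without SFM 2 (slope 0.83, adjusted p = 0.0348, where 5.79% of 11970 genes were called). Against SFM, its log2 change was 0.52 ± 1.07 for SB, and 1.03 ± 1.03, 2.27 ± 0.85 and 2.91 ± 0.95 at the 3 rising activin doses, with no adjusted p under 0.768. With SFM 1 left out, the change was 3.83 for AA15 and 4.48 for AA100. With SFM 2 left out, that of AA100 was 2.30. The size of the Sp5 change thus depended on SFM 2, the library with 1 Sp5 count.

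Cdx2 was near the floor of 3 counts in the dose set. It had 8 counts in SB, against 5 and 2 in SFM. Activin libraries held 3 counts at 3 ng/mL, 10 and 6 at 15 ng/mL and 15 at 100 ng/mL. AA100 was the highest of the 7 libraries, and the SB count lay between the counts of the AA15 pair. The slope was 0.66 ± 0.26 log2 units per step (adjusted p = 0.372), and AA100 exceeded SFM by 1.90 ± 0.93 log2 units (adjusted p = 0.941). Pooled, the AA100 level was 5.08 times that of AA3, with a counting interval of 1.44 to 27.4, because AA3 rested on 3 counts.

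Cdx4 and Cdx1 were barely detected. Cdx4, which acts early in posterior mesoderm and blood formation, had 7 counts in SB, against 3 and 0 in SFM, and at most 1 in each activin library of the dose set. The pooled SB level was 4.41 times the SFM level (counting interval 1.01 to 26.4). Over all 33 libraries Cdx4 was at 0 in 26 and totalled 15 counts. Cdx1, a Wnt-responsive gene of the streak, was at 0 in SB and SFM, had 1 count in AA3, 3 and 0 in AA15 and 3 in AA100, and was at 0 in 23 of 33 libraries. A count of 0 in a dose-set library allows levels up to 0.191 to 0.230 CPM by the limit of 3 counts, and up to 0.245 to 0.294 CPM by the Wilson interval.

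The method set asked how AA100 and AA3 differed when the mRNA was read by 3 methods. In standard RNA-seq, Evx1 had 106 counts in AA100, against 210 and 183 in AA3. Cdx2 had 12 in AA100, against 63 and 47 in AA3. Sp5 had 599 in AA100, against 575 and 600 in AA3. Evx1 and Cdx2 were thus lower in AA100 than in either AA3 library, and Sp5 lay between the AA3 libraries in counts.

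In CPM, Evx1 stood at 10.2 in AA100 (interval 8.44 to 12.3) and averaged 18.6 ± 1.40 in AA3 (SD, n = 2). It fell by 0.84 ± 0.15 log2 units (adjusted p = 6.81e-08). Cdx2 stood at 1.16 in AA100 and averaged 5.19 ± 0.956 in AA3 (SD, n = 2), and fell by 2.14 ± 0.35 log2 units (adjusted p = 1.08e-08). Sp5 stood at 57.7 in AA100 and averaged 55.6 ± 2.90 in AA3 (SD, n = 2), a log2 change of 0.08 ± 0.07 that did not pass (adjusted p = 0.36). In this comparison 62.3% of 12605 genes were called, 31.1% in each direction. The AA3 pair that gave the spread differed by a chi-square of 1.29 per degree of freedom, close to counting noise. In the joint fit of the 3 methods, which pools the spread of all 10 libraries, neither change was called (Evx1 −0.85, Cdx2 −2.14, adjusted p = 1 for each), and 269 genes were called in all.

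Standard RNA-seq also allows levels to be compared between genes per length. In CPM per kilobase of transcript, Sp5 stood at 27.5 in AA100 and at 25.5 and 27.4 in AA3. Evx1 stood at 3.55 in AA100 and at 6.80 and 6.11 in AA3. Cdx2 stood at 0.511 in AA100 and at 2.59 and 2.00 in AA3. The order Sp5, Evx1, Cdx2 held in all 3 libraries. Cdx1 was at 0 in AA100 and at 0.213 and 0.220 in AA3 (4 counts in each), and Cdx4 was at 0 in all 3.

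**Figure D2:**
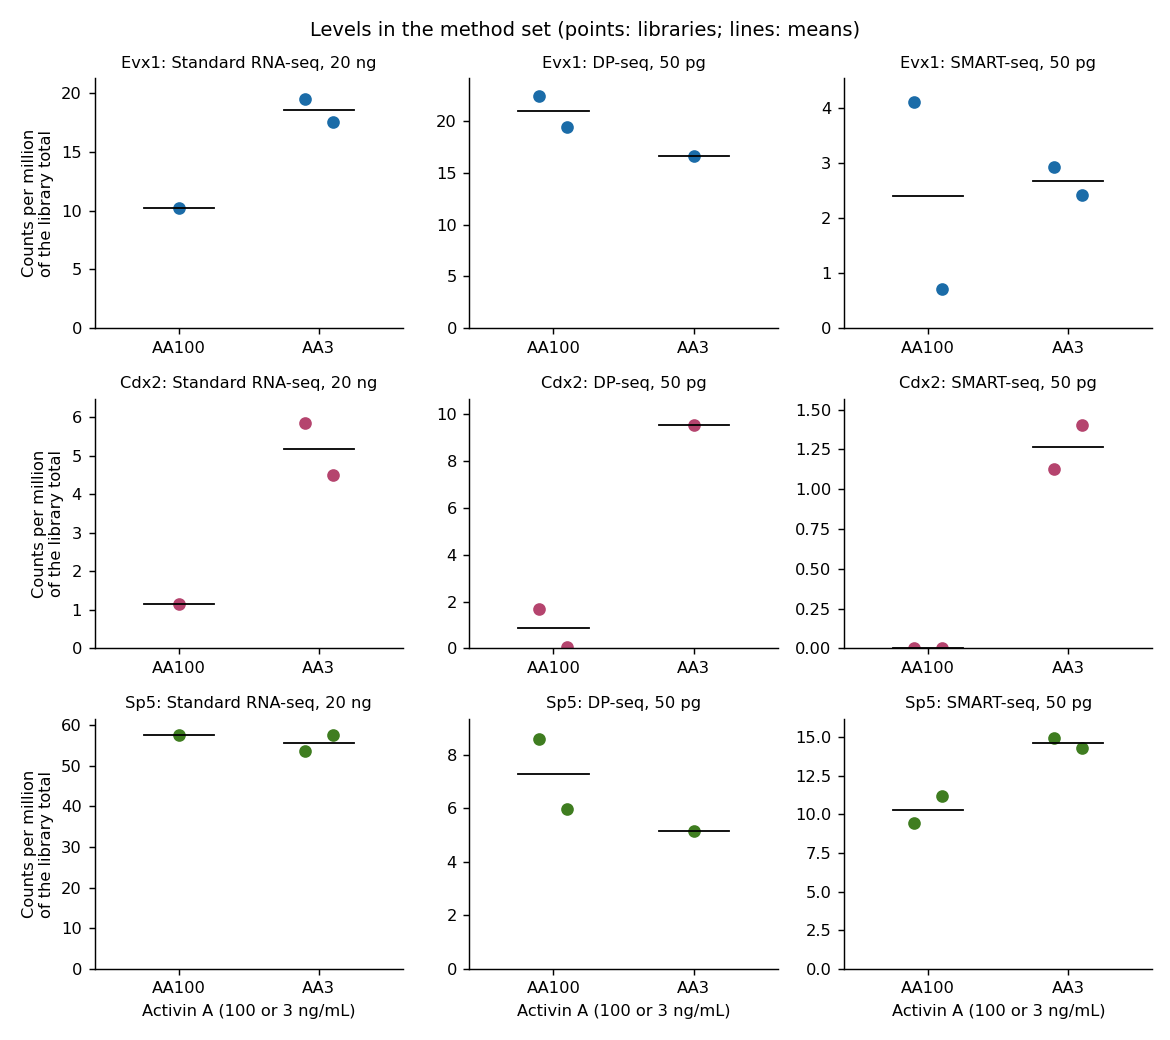
Level in CPM (counts scaled to a library total of 1000000 reads; vertical axes, linear, from 0, each panel on its own scale) of Evx1, Cdx2 and Sp5 in AA100 and AA3 libraries by standard RNA-seq, DP-seq from 50 pg and SMART-seq from 50 pg; points are libraries and lines are group means. Cdx2 is lower in every AA100 library than in every AA3 library of the same method, down to 0 in SMART-seq, while Evx1 is lower in standard RNA-seq, higher in DP-seq and overlapping in SMART-seq.

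In DP-seq from 50 pg, Evx1 had 256 and 261 counts in AA100, against 178 in AA3, or 22.5 and 19.5 CPM in AA100, against 16.7 CPM in AA3. The log2 change was 0.32 ± 0.56 (adjusted p = 0.859). Cdx2 had 19 and 1 counts in AA100, against 102 in AA3, a log2 change of −3.45 ± 1.43 (unadjusted p = 0.0243, adjusted p = 0.228). The AA100 libraries are labelled technical replicates, yet their Cdx2 counts stood far apart. Sp5 had 98 and 80 counts in AA100, against 55 in AA3, a log2 change of 0.49 ± 0.98 (adjusted p = 0.879). None of the 3 genes passed, where 3.43% of 11631 genes were called.

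In SMART-seq, Evx1 had 106 and 20 counts in AA100, against 83 and 74 in AA3. The AA100 libraries fell on both sides of the AA3 pair, and the log2 change was −0.22 ± 1.10 (adjusted p = 0.961). Its sign depended on 1 library, since it was 0.55 (adjusted p = 0.843) without AA100 2 and −1.96 without AA100 1. Cdx2 had 0 counts in both AA100 libraries, against 32 and 43 in AA3. With a floor of 3 counts over the pair it was at least 23.0-fold lower in AA100, a bound that leaves out spread between libraries. The fitted change did not pass (unadjusted p = 0.0078, adjusted p = 0.126). Sp5 had 244 and 317 counts in AA100, against 425 and 438 in AA3, a log2 change of −0.56 ± 0.36 (adjusted p = 0.526). None of the 3 genes passed, where 1.35% of 11453 genes were called.

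Cdx2 was therefore lower in AA100 than in AA3 in each of the 3 methods, without overlap between libraries. It passed in 1 of the 3, standard RNA-seq, where 62.3% of 12605 genes were called. Pairs of libraries here are technical replicates, and the share of all genes that separate likewise was not counted. Differences between methods were tested in the joint fit. For DP-seq minus standard RNA-seq they were 1.18 ± 1.32 for Evx1, −1.30 ± 2.28 for Cdx2 and 0.43 ± 0.61 for Sp5, where 0.739% of 14072 genes were called (0.334% higher and 0.405% lower). For SMART-seq minus standard RNA-seq they were 0.55 ± 1.20 for Evx1, −5.96 ± 2.53 for Cdx2 (unadjusted p = 0.0537, adjusted p = 0.521) and −0.71 ± 0.54 for Sp5, where 0.853% were called (0.249% higher and 0.604% lower). None of the 6 differences passed. The Evx1 difference for SMART-seq was −1.18 without SMART-seq AA100 1.

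**Figure D3:**
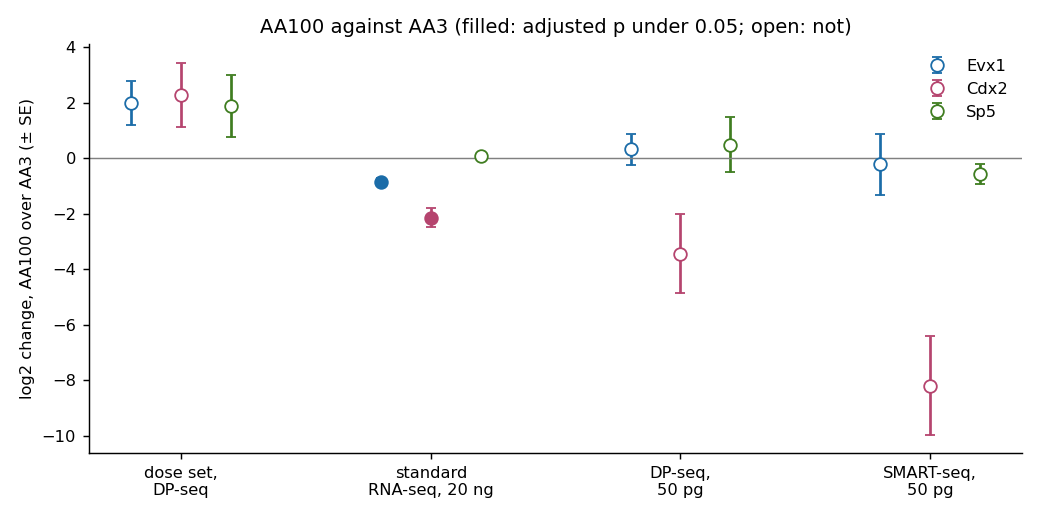
Fitted log2 change of AA100 over AA3 (vertical axis, with standard errors) for Evx1, Cdx2 and Sp5 in the dose set, standard RNA-seq, DP-seq from 50 pg and SMART-seq from 50 pg; filled points passed an adjusted p of 0.05. Only Evx1 and Cdx2 in standard RNA-seq passed; the SMART-seq value of Cdx2 rests on 0 counts in AA100 and its size depends on the fit.

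Evx1 and Cdx2 had opposite signs between AA100 and AA3 in the dose set and in standard RNA-seq. This difference was tested after it had been seen, in 1 fit of the 17 libraries of both sets. The change in the dose set exceeded that in standard RNA-seq by 2.83 ± 1.24 log2 units for Evx1 (unadjusted p = 0.0446, adjusted p = 1), by 4.43 ± 2.39 for Cdx2 and by 1.82 ± 1.07 for Sp5. No gene passed (0.0% of 14757), 199 had an unadjusted p under 0.05 and DESeq2 called 25. Against DP-seq from 50 pg, the same method at low input, the difference was 1.69 ± 1.18 for Evx1, 5.77 ± 2.34 for Cdx2 (unadjusted p = 0.0354, adjusted p = 1) and 1.43 ± 1.06 for Sp5. Here too 0.0% of 14757 genes passed, with 701 at an unadjusted p under 0.05 and 33 called by DESeq2.

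Levels at the same labelled dose also differed between the sets. At 3 ng/mL, Cdx2 had 18 and 40 counts in the 10 ng libraries of the dilution series, against 3 in the dose-set library, and its pooled level was 22.6 times higher (counting interval 7.36 to 113). Sp5 had 28 and 80 counts, against 10, and was 12.6 times higher (6.61 to 27.1). Evx1 had 78 and 282 counts, against 625, and was at 0.673 times the dose-set level (0.590 to 0.768). All of these libraries were made by DP-seq. At 100 ng/mL, Evx1 in standard RNA-seq was at 0.0644 times and Sp5 at 24.1 times the dose-set level.

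Whether both sets came from the same cultures is not given in the sources used here. Markers of visceral endoderm differed between them too: the 8 markers summed to 47.9 to 140 CPM over the 7 dose-set libraries and to 2.59 to 7.80 over the 3 standard RNA-seq libraries. Within DP-seq at 3 ng/mL, the 8 summed to 103 CPM in the dose-set library, against 4.82 and 3.10 in the 10 ng libraries of the dilution series. The part of these markers in the difference was not tested. RNA set, input and method cannot be told apart for standard RNA-seq.

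Across the dilution series of AA3 mRNA, Evx1 varied most at the lowest input. At 1 pg it had 35 counts in 1 library and 1 count in the other, or 81.9 and 2.23 CPM. At 10 pg the level was 13.5 and 16.7 CPM, below every library of higher input. Its libraries held 50.2 and 39.7 CPM at 50 pg, 46.1 and 36.5 at 100 pg, 29.5 and 26.9 at 1 ng, and 25.1 and 27.3 at 10 ng. The 4 libraries of 50 and 100 pg were thus above the 4 of 1 and 10 ng.

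Sp5 had 1 count in each library at 1 pg. It had 13.5 and 13.6 CPM at 10 pg, 9.52 and 6.10 at 50 pg, and 7.75 to 15.9 in the 6 libraries of 100 pg or more. Cdx2 had 0 and 2 counts at 1 pg, and its technical replicates at 10 pg held 40 and 4 counts. In the libraries of 50 pg or more it had 2.15 to 5.79 CPM. Of the 3 genes, Cdx2 was the one whose pair at 10 pg fell on both sides of the range at higher input.

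**Figure D4:**
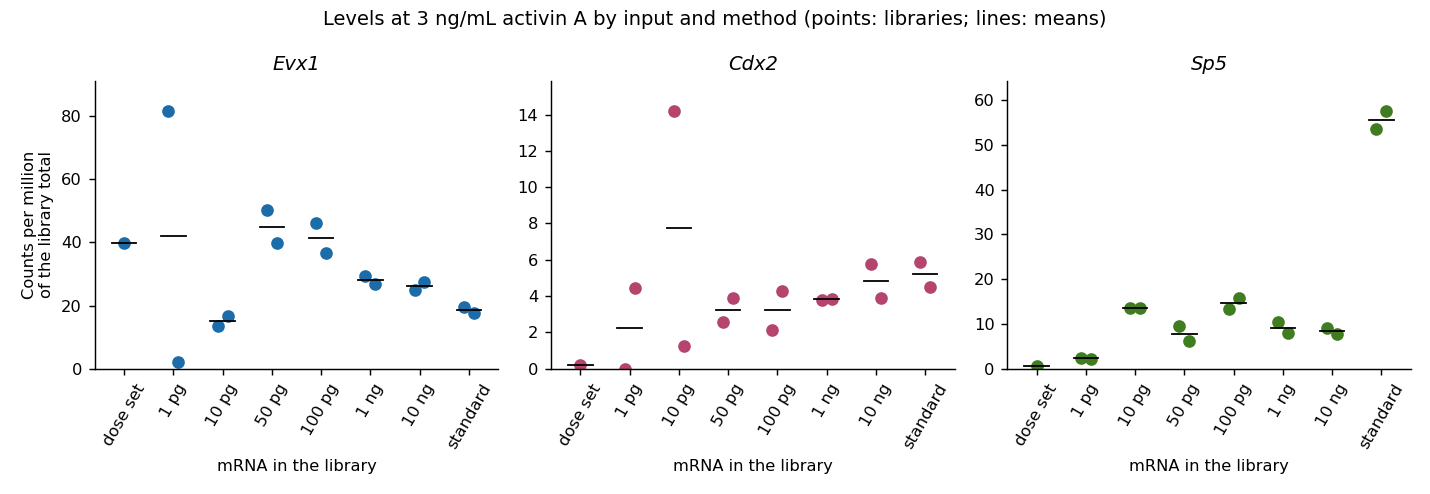
Level in CPM (counts scaled to a library total of 1000000 reads; vertical axes, linear, from 0) of Evx1, Cdx2 and Sp5 in libraries of cells given 3 ng/mL activin A, by mRNA input; the dose-set library (left) and the dilution series are DP-seq, and the rightmost pair is standard RNA-seq from 20 ng. Points are libraries and lines are group means. Cdx2 and Sp5 are lowest or near lowest in the dose-set library, and the pairs at 1 pg or 10 pg are the widest for Evx1 and Cdx2.

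The 3 genes were also read at 3 ng/mL with other primer sets. With primer set 1, Evx1, Cdx2 and Sp5 had 105, 50 and 107 counts. With primer set 2 they had 5, 4 and 12, and with primer set 3 they had 24, 0 and 3. The paired-end library had 101 counts of Evx1, 28 of Cdx2 and 4 of Sp5. Each of these is 1 library of 5019740 to 5996577 counts, and differences between them were not tested. Within the DP-seq libraries of 3 ng/mL, counts of Evx1 per count of Sp5 ran from 0.417 with primer set 2 to 62.5 in the dose set, against 0.365 and 0.305 in standard RNA-seq. The primer set of the dose set and of the dilution series is not given in the sources used here.

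A list of 17 other posterior streak genes was read beside the 5. Of the 12 that were tested in the dose set, 9 had a positive slope with dose and 0 passed in edgeR, with a median slope of 0.57 log2 units per step, against 0.00 over all genes tested. The 2 with the largest slopes were T (1.53 ± 0.58, adjusted p = 0.366) and Wnt8a, a Wnt ligand gene of the posterior streak (1.49 ± 0.27, adjusted p = 0.0917). Without SFM 2, 6 of 11 tested rose, where 2.97% of all genes were called as higher, and these are named after their values were seen: Mesp1, a factor gene of early mesoderm (slope 1.67), Wnt3, the ligand gene needed for streak formation (1.57), Wnt8a (1.24), T (1.14), Cyp26a1, which encodes an enzyme that degrades retinoic acid (0.93), and Fgf8 (0.85). Without SFM 1, the same number had positive slopes (9 of 12) and the median slope was 0.69, while 0 of 12 passed, in a fit in which 0.0% of 11929 genes were called as higher. Markers of neuroectoderm, another fate that such cultures can take, moved with dose as well: the 8 markers summed to 621 CPM in SB, against 348 and 498 in SFM, and to 156 in AA3, 124 and 104 in AA15 and 85.0 in AA100. Of the 8, 3 fell with dose, where 0.248% of all genes were called as lower. Their slopes were −3.68 for Neurog2, −2.68 for Pax6 and −2.59 for Lhx2. In the other direction, 2 of the 8 had positive slopes and 0 passed. Zic1 had 498 and 63 counts in SFM, against 708 in AA3, 859 and 701 in AA15 and 707 in AA100. The median slope over the 8 was −1.18, and it was −0.87 without SFM 1 and −1.45 without SFM 2. In standard RNA-seq the 8 summed to 223 CPM in AA100, against 224 and 220 in AA3. Most of each sum was Nes, at 200 CPM in AA100 and a mean of 200 in AA3. Of the 6 markers tested there, 1 rose and 2 fell, where 31.1% of all genes were called in each direction. Their median change was −1.06 log2 units, against −0.01 over all genes. The part of the neuroectoderm markers in the levels of Evx1 and the other streak genes was not tested.

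In SB against SFM, 9 of the 12 posterior genes had negative and 3 positive changes, and 0 passed, as no gene did. Wnt8a, Fgf8 and Mesp1 had 0 counts in SB, against 16, 14 and 13 summed over the SFM pair, and were at least 2.82-, 2.47- and 2.29-fold lower in SB. The median over the 12 posterior genes in SB against SFM was −2.74 log2 units as fitted and −1.40 with these 3 at their bound, against −0.05 over all genes. It was −2.50 without SFM 1, when 8 of 12 fell and 2 rose, and −1.49 over 11 genes without SFM 2, when 2 fell and 1 rose, where 27.5% and 2.70% of all genes were called as lower and 30.9% and 1.42% as higher. Dll1 had 306 counts in SB, against 139 and 77 in SFM, and Wnt5a 382 in SB, against 230 and 99 in SFM, both above each SFM library. T had 26 in SB, between the SFM libraries.

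In AA100 against AA3 of the dose set all 12 had positive changes, with a median of 1.87 as fitted and 1.83 without Wnt3a, which was at or under 3 counts in both groups. Of these 12, 0 passed, and 7 of 12 passed without SFM 1, when 2.96% of all genes were called as higher.

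In standard RNA-seq more of the list was lower in AA100. Of 16 posterior streak genes tested, 10 fell, 3 rose and 3 did not pass, with a median of −1.01 log2 units against −0.01 over all genes, and 31.1% of all genes were called in each direction. By fitted size the largest falls were those of Msgn1, a presomitic mesoderm factor gene (−3.55 ± 1.04, adjusted p = 0.00137), the Notch ligand gene Dll1 (−2.93 ± 0.15, 1.14e-76), the ligand gene Wnt3a (−2.89 ± 0.38, 4.95e-13) and Mesp1 (−2.39 ± 0.22, 4.9e-25). Msgn1 had 1 count in AA100, against 10 and 17 in AA3, a ratio of 0.0754 with a counting interval of 0.00184 to 0.457, so its place in this order is uncertain. Mesp1 had 28 counts in AA100, against 165 and 140 in AA3. In the dose set it had 116 counts in AA100, against 11 in AA3. Fgf8 (1.45 ± 0.17, adjusted p = 1.67e-15), Fgf17 and Wnt3 were the 3 that rose in standard RNA-seq, and are named after their values were seen.

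**Figure D5:**
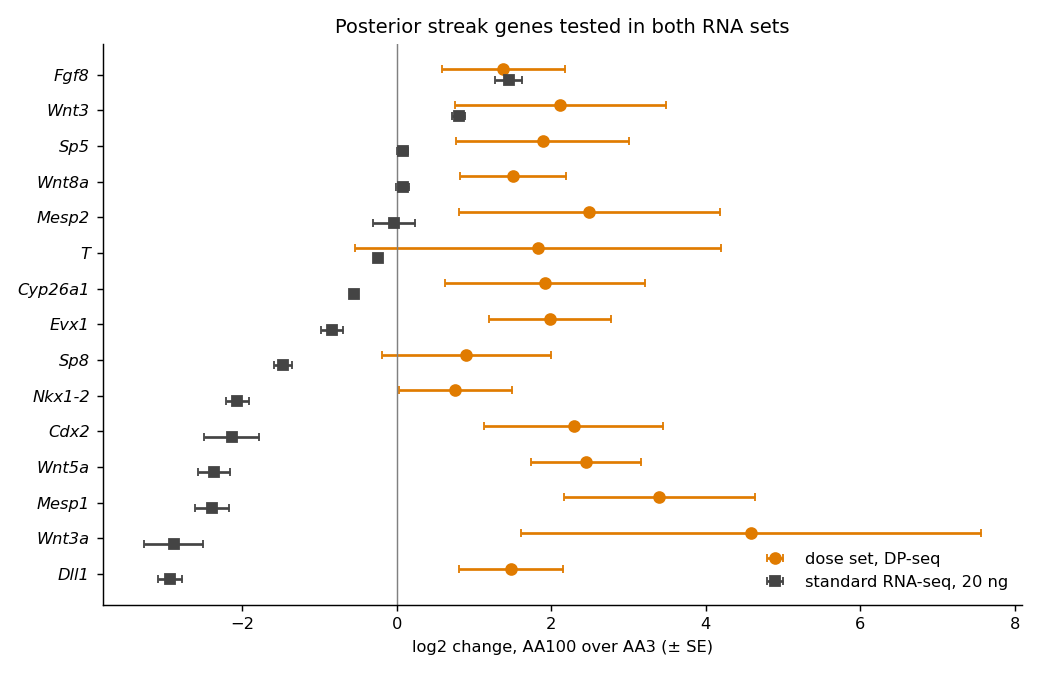
Fitted log2 change of AA100 over AA3 (horizontal axis, with standard errors) for Evx1, Cdx2, Sp5 and the 12 other posterior streak genes tested both in the dose set (circles) and in standard RNA-seq (squares), ordered by the value in standard RNA-seq. All 15 dose-set values are positive with none called (that of Wnt3a rests on 3 and 0 counts), whereas in standard RNA-seq the values run from −2.93 for Dll1 to 1.45 for Fgf8.

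In DP-seq from 50 pg, 3 of 13 posterior streak genes passed, all lower, where 1.16% of genes were called as lower. The log2 change was −6.37 ± 1.04 for Dll1 (adjusted p = 0.000412) and −2.22 ± 0.51 for Nkx1-2, a homeobox gene of the caudal epiblast (0.0193). Mesp1 had 0 counts in both AA100 libraries, against 77 in AA3 (adjusted p = 0.0266). With a floor of 3 counts over the pair it was at least 59.6-fold lower in AA100, a bound that leaves out spread between libraries. In SMART-seq 2 of 12 passed, both lower, where 0.568% of genes were called as lower: the log2 change was −1.26 ± 0.15 for T (0.032) and −1.83 ± 0.23 for Sp8, a zinc finger gene related to Sp5 (0.0351). The medians were −0.93 in DP-seq and −1.09 in SMART-seq, against 0.07 and 0.01 over all genes.

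Hox genes, the best known targets of Cdx proteins, were mostly too low to test: 3 of 39 passed the filter in the dose set and 2 in standard RNA-seq. In the dose set the median slope was −0.11, and Hoxb1 (0.97 ± 0.38, adjusted p = 0.372) and Hoxb9 (−0.51 ± 0.29, 0.47) had the largest slopes. In standard RNA-seq both tested genes were lower in AA100, with a log2 change of −4.39 ± 0.58 for Hoxb1 (adjusted p = 2.29e-13) and −3.38 ± 1.08 for Hoxb2 (0.00359). Hoxb1 had 2 counts in AA100, against 51 and 41 in AA3, a ratio of 0.0443 (counting interval 0.00528 to 0.164). Hoxb2 had 1 count in AA100, against 11 and 13 in AA3, a ratio of 0.0848 (0.00206 to 0.520).

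Sp8 was counted both in the posterior streak list and among the genes of the Wnt response. Of 14 genes of the canonical Wnt response and its feedback, 13 were tested for the dose trend and 0 passed, with a median slope of 0.12. The largest were those of Apcdd1, a Wnt inhibitor gene (−1.42, adjusted p = 0.12), and Sp8 (−0.69, 0.395). The median slope of the Wnt genes was 0.18 without SFM 1 and 0.07 without SFM 2. In standard RNA-seq 5 of 14 rose and 6 fell, with a median of 0.02, shares near those of all genes (31.1% in each direction). The largest changes were those of Sp8 (−1.48 ± 0.12), Tcf7, a TCF/LEF factor gene (1.35 ± 0.04), Apcdd1 (−0.95) and Nkd1, a Wnt feedback inhibitor gene (−0.89). Of 12 BMP ligand and response genes, 8 were tested for the trend and 0 passed, with a median of 0.09 and the largest slope in Bmp2 (1.50 ± 0.25, adjusted p = 0.0737). The median slope of the BMP genes was 0.34 without SFM 1 and 0.10 without SFM 2. In standard RNA-seq 4 of 10 rose and 1 fell, against 31.1% of all genes in each direction, with log2 changes of 2.16 for the homeobox gene Msx2 and −1.11 for Id3, which encodes an inhibitor of DNA-binding factors. In DP-seq 1 of 8 passed, Id2 (−1.37, adjusted p = 0.0358), where 1.16% of genes were called as lower, and in SMART-seq 0 of 9.

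Anterior streak, organizer and endoderm genes had positive slopes in 12 of 12, with a median of 1.19. Of these, 3 rose, Mixl1 (1.88), Cer1 (1.35) and Lhx1 (1.28), where 0.149% of all genes were called as higher. The median slope was 1.31 without SFM 1 and 1.04 without SFM 2, with 12 of 12 positive in each. In standard RNA-seq 8 of 12 rose and 2 fell, with a median of 0.52, where 31.1% of all genes were called in each direction. In that comparison the posterior median was negative and the anterior median positive, while in the dose set both were positive. These are counts and medians of 2 lists, whose difference was not tested.

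Trophoblast, which also uses Cdx2, was checked by 10 markers. Elf5 and Prl3d1 were at 0 in every library of the dose and method sets. The 10 summed to 40.2 CPM in SB, against 24.8 and 8.43 in SFM, and to 22.7 in AA3, 26.2 and 21.2 in AA15 and 42.7 in AA100. Of these sums, Gata3 alone gave 36.0 in SB, a mean of 10.3 in SFM and 16.9 in AA3. It gave a mean of 13.3 in AA15 and 24.6 in AA100. In standard RNA-seq the 10 markers summed to 51.2 in AA100, against 35.8 and 34.6 in AA3, while Cdx2 was lower in AA100. In DP-seq from 50 pg Cdx2 and the marker sum were both lower in AA100, the sum at 61.8 and 71.3 against 89.4 in AA3. Gata3 had the largest part in this, at a mean of 24.0 CPM in AA100 against 60.5 in AA3. Of the 5 markers tested there, 3 had positive changes and 0 passed. Their median change was 0.79 log2 units, against 0.07 over all genes. In SMART-seq the marker sums overlapped, at 85.8 and 89.4 in AA100 against 108 and 76.7 in AA3. Krt7 gave a mean of 69.9 CPM of these in AA100 and 72.0 in AA3. The part of the trophoblast markers in the Cdx2 levels was not tested.

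Over the 7 dose-set libraries, the genes whose log2(CPM + 1) was most like that of Evx1 were Cer1, which encodes a secreted antagonist of Nodal, BMP and Wnt (Pearson r = 0.995), the ETS factor gene Etv4 (0.993) and the Eph receptor gene Epha1 (0.989), out of 1386 genes with an SD of at least 1. Cer1 had 4 counts in SB, against 523 and 491 in SFM, and 1258 in AA3, 3607 and 2643 in AA15 and 11371 in AA100. For Sp5 they were Col13a1, which encodes a collagen chain (0.983), Cd55 (0.978) and Apln, which encodes the ligand apelin (0.972), out of 1387. For Cdx2 they were Slc1a4 (0.856), Dpf3 (0.819) and Adra2b (0.814). These values describe 7 libraries that share depth and method, and Cdx2 and Sp5 enter with 2 to 15 and 1 to 37 counts.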

How the data were processed

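Gene expression was measured in 33 mouse libraries, and groups follow the labels. Per the file headers, the authors deposited, for each RefSeq transcript, a count of unique reads. The aligner, build and strand setting were not given in the sources used here. Deposited tables with values that are not whole (15 in all) were treated as estimated counts and rounded. Per the labels' protocols, mRNA was reverse transcribed and SMART-seq cDNA was amplified with 13 cycles. Of 26566 transcripts, 25857 were named by a RefSeq table and 150 by GENCODE, and 559 kept their identifier; no column of per-sample values was left unused.

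Tests used edgeR 4.0.16 (R 4.3.3; filterByExpr with minimum count 10 and minimum total 15, TMM scaling, robust quasi-likelihood fits, Benjamini-Hochberg adjustment at 0.05 over all genes tested), with DESeq2 1.42.0 as an alternative. Standard errors are the log2 change divided by the root of the F statistic. Comparisons with SFM used the 7 dose-set libraries, each method its own libraries, and differences between methods 10 libraries. Where a group has 1 library, the other groups of its fit supply the spread. Levels are CPM of the library total rather than TMM-scaled as first planned, since TMM factors ran from 0.609 to 1.79 between methods; within the dose set they ran from 0.795 to 1.11, and Evx1 then stands at 11.6 and 20.9 in SFM and 155 in AA100. A group at 0 was set to 3 counts for a fold, which leaves out spread between libraries. Ratios carry exact binomial counting intervals (Python 3.11.15, scipy 1.17.1, numpy 2.4.6, pandas 2.3.3; figures with matplotlib 3.10.9). Amplified reads are not independent molecules.

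The members and lists were chosen with earlier results of these data known. Named are the 5 genes, up to 4 genes per list that passed, by size of change (otherwise the 2 largest), and the 3 genes most like each tested member; a selection is printed. Same-numbered AA15 and SFM libraries deviated with r = −0.257 over 12180 genes, and same-numbered SMART-seq libraries with r = −0.0137 over 14072, so the numbers were not taken to pair samples. The tests were tried on simulated counts. Alternatives were RLE and upper quartile scaling, DESeq2, no filter, other dose codings, joint fits, a replicate block and leaving out each replicate.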

Additional observations from a re-analysis of the deposited data

How the results depend on the processing

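Of 438 alternative values of the members' changes, 401 kept their direction and side of the threshold, 13 lost a call, 21 gained 1 and 3 changed sign. The sign changes were those of Sp5 in SB against SFM without SFM 2 (−0.10), Evx1 in SMART-seq without AA100 2 (0.55), and the Evx1 difference of SMART-seq minus standard RNA-seq without SMART-seq AA100 1 (−1.18), and the cause was not tested.

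Counts of genes called moved more. With DESeq2 they were 497 for the dose trend, 17, 14, 168 and 106 for SB, AA3, AA15 and AA100 against SFM, 4431 for standard RNA-seq, 1135 for SMART-seq, 508 for DP-seq minus standard RNA-seq and 477 for SMART-seq minus standard RNA-seq. The trend called 18 genes on log2(dose + 1) and 196 with SB as the lowest step. The joint fit called 269 in standard RNA-seq and 573 in SMART-seq, and SMART-seq without a filter called 250. With a replicate block, SMART-seq called 54 and the 4 AA15 and SFM libraries 10, against 0 without the block; with the AA15 numbers crossed, chosen after seeing the data, 0 were called.

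Leaving out each replicate gave 0 to 693 genes for the trend, 0 to 7055 for SB, 0 to 6921 for AA3, 0 to 7815 for AA15 and 0 to 7156 for AA100 against SFM. It gave 47 to 53 for standard RNA-seq in the joint fit, 505 to 519 for DP-seq, 11 to 18 for SMART-seq, 5 to 291 for DP-seq minus standard RNA-seq and 8 to 272 for SMART-seq minus standard RNA-seq. For AA100 over AA3, AA15 over AA3 and AA100 over AA15 in the dose set it gave 0 to 605, 0 to 397 and 0 to 344, and for the dose set minus standard RNA-seq and minus DP-seq 0 to 46 and 0 to 48. Without SFM 1 or SFM 2, the 1 SFM library left is assumed to vary like the AA15 pair.

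Over the same settings Evx1 ran from −6.03 to −5.19 for SB against SFM, 0.90 to 1.74 for AA3, 1.79 to 2.65 for AA15, 2.88 to 3.73 for AA100, −0.90 to −0.76 for standard RNA-seq and −1.96 to 0.55 for SMART-seq. Cdx2 ran from −2.30 to −1.93 for standard RNA-seq, −6.89 to −2.50 for DP-seq and −8.35 to −8.01 for SMART-seq. Sp5 ran from 2.30 to 4.48 for AA100 against SFM and −0.10 to 2.09 for SB against SFM, and the Evx1 difference of SMART-seq minus standard RNA-seq from −1.18 to 1.31. Depth limits Cdx2 in the dose set (2 to 15 counts), Sp5 there (1 to 37) and Cdx1 and Cdx4 in all 33 libraries. Nothing here separates culture from library, because no group but SFM has samples that may be independent.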
